A study of Homo sapiens with 46 samples.

Results

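The genes described here are 37 genes of DNA replication and S phase, the stage of the cell cycle in which the chromosomes are copied, out of 62756 genes in the deposited count table. They were chosen by name as genes of replication licensing, the replicative polymerases and nucleotide supply, and all 37 matched 1 row of the table each. All 37 also passed the filter on low counts, which left 21484 genes tested. Their RNA was measured by RNA-seq in DLD-1 cells, an established human colorectal cancer line. The parental line carried no tag. The other 3 lines carried an auxin-inducible degron, a tag that makes a protein degradable on addition of the plant hormone auxin, at the N-terminus of 1 endogenous lamin: Lamin A/C (LAC), Lamin B1 (LB1) or Lamin B2 (LB2). Each line was given 1 mM auxin for 0, 16 or 96 h, which makes 12 groups and 46 libraries, 4 per group except LB1 at 0 h and LB2 at 96 h with 3. The labels do not say whether a tagged line is 1 clone, nor whether replicates were separate cultures, so p-values measure only the spread between these libraries. The untagged line received the same auxin, so a change shared by all lines can be told from one in a tagged line.

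Replication is prepared in G1, when the origin recognition complex with CDC6 and CDT1 loads the MCM2 to MCM7 ring, the core of the replicative helicase, onto origins. At the start of S phase the ring is activated by CDC45, the GINS complex and MCM10. DNA is then copied by polymerases alpha, delta and epsilon, and the PCNA clamp holds delta and epsilon. Many of these genes are controlled by E2F transcription factors and are expressed around the G1/S boundary, so that their RNA is high in dividing cells. Lamins are the filaments that line the inside of the nuclear envelope.

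Promoter sequences were found for 32 of the 37 genes in a RefSeq table built on GRCh38.p14, in windows from 250 bases before to 50 bases after the start. Only the first listed window of each gene was used. More than 1 window was listed for 6 of these members, so the counts below depend on that choice of start. They were searched on both strands for 4 words of the E2F type, TTTCGCGC, TTTGGCGC, TTTCCCGC and TTTGCCGC, which can overlap each other when a forward and a reverse match share bases. At least 1 word lay in 16 of the 32 windows (50%), against 3.33% of all 27305 promoter windows of the same length. At least 2 matches lay in 5 of 32 windows (15.6%), against 0.154% of all windows. The shorter word CCAAT lay in 19 of 32 (59.4%), against 35.7% of all windows, and TTTGAA, a word known from promoters of mitotic genes, in 1 of 32 (3.1%), against 15.4%. The GC content of the windows had a median of 65.5% in the members and 58.3% in all windows. No match says only that these letters are not in the window. The 8 stretches below, shown because the results turn on these genes or because they hold the clearest words, run 5′ to 3′ from 160 bases before to 20 bases after the start, with the E2F-like words in capitals. MCM2 (chr3:127598251-127598430, plus strand) and MCM6 (chr2:135876424-135876603, minus strand) hold words that overlap on the 2 strands, 1 such pair in MCM2 beginning at base 3 after the start and 2 pairs in MCM6. CDC6 (chr17:40287719-40287898, plus strand) holds 1 word at base 8 after the start, and E2F1 (chr20:33686366-33686545, minus strand) holds 2. PCNA (chr20:5126603-5126782, minus strand) and POLE2 (chr14:49688195-49688374, minus strand) hold 1 each. TK1 (chr17:78187185-78187364, minus strand) and CHAF1A (chr19:4402480-4402659, plus strand), the 2 genes with the largest fold changes below, hold none of the 4 words.
MCM2: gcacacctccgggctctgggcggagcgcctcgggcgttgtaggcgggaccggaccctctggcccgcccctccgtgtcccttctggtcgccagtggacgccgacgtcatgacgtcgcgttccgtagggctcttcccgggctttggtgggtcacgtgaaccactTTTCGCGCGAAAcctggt
MCM6: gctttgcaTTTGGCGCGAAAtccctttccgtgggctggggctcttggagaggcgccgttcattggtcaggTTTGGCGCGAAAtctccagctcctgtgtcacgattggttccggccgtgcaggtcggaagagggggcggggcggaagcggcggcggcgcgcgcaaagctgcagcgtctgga
CDC6: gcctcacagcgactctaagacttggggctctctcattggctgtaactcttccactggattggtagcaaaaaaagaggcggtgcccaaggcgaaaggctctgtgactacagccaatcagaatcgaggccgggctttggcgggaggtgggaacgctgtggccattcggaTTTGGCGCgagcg
E2F1: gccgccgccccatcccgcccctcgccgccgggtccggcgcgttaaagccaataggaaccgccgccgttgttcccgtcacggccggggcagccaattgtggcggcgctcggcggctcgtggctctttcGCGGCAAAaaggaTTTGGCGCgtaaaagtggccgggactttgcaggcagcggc
PCNA: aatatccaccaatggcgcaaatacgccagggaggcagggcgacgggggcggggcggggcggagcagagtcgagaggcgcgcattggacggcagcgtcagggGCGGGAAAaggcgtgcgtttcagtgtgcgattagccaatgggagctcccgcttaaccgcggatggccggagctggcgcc
POLE2: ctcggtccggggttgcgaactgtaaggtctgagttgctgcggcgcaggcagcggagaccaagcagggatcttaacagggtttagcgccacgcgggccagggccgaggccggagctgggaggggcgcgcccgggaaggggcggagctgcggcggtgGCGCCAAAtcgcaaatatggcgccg
TK1: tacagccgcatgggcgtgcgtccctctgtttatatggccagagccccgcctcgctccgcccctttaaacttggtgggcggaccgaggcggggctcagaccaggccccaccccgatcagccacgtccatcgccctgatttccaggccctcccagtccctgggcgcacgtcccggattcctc
CHAF1A: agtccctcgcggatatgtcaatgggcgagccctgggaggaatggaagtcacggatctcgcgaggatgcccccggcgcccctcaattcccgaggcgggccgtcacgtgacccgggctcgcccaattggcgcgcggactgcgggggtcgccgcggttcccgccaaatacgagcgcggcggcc

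The libraries held from 479446 to 37309421 counts, with a median of 11533218. The members took 2605 counts in the shallowest library, LB2 at 16 h replicate 3, where 3 counts correspond to 6.26 CPM, counts scaled to a common library total of 1000000. Of the 6 libraries under 5000000 counts, 5 were at 0 h. At 0 h, LAC replicate 1 and LB2 replicate 1 stood apart from the other libraries of their groups. LMNA, the gene tagged in LAC, measured 773 CPM in LAC replicate 1 against 263 to 373 CPM in the other 3 libraries, and LMNB2 measured 261 CPM in LB2 replicate 1 against 99.9 to 109 CPM in the others. Both values lie within the range of the parental line at 0 h, 614.5 to 862 CPM for LMNA and 235 to 307 CPM for LMNB2. Whether these 2 libraries hold only the line on their label was not tested. Several calls that use these 2 libraries are also given without them. Group means, ranges of group means and correlations with GC content include them. Counts of members from fits without a single library are given without the share of all genes called in that fit. A change in such a count is therefore not read as particular to the members. Defining markers of fibroblasts and immune cells summed to at most 5.54 and 0.927 CPM in any library, 3 endothelial markers to at most 17.5 CPM (in a LAC library at 0 h), and the colon epithelial list summed to between 5480 and 12580 CPM. All levels below are CPM scaled by TMM, the trimmed mean of M values, which sets libraries to a common level.

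Most of the 37 replication genes varied less than 2-fold between group means across all lines and times. Together the 37 genes took between 0.507% and 0.611% of all counts in the 46 libraries. Group means ran from 0.535% ± 0.0219 (SD, n = 4) in the parental line at 16 h to 0.589% ± 0.0161 (SD, n = 4) in LB1 at 16 h, and those of the 3 parental groups, 0.543%, 0.535% and 0.537%, were below those of all 9 tagged groups. This order held for the share of counts and not for summed TMM-scaled CPM, whose group means ran from 5123 in the parental line at 0 h to 6197 in LAC at 0 h. On that scale LB1 and LB2 at 96 h (5138 and 5394 CPM) lay below the parental line at 16 and 96 h (5468 and 5412 CPM). For a single gene, the highest of the 12 group means exceeded the lowest by a median of 1.48-fold. Only POLE2, a subunit of polymerase epsilon (2.701-fold), TK1, the thymidine kinase of the salvage pathway (2.17-fold), and POLD1, the catalytic subunit of polymerase delta (2.03-fold), exceeded 2-fold, and 34 of 37 stayed under it. For these genes LAC at 0 h, with replicate 1 included, was the lowest group (POLE2) or the highest (TK1 and POLD1). The same ranges are not given for all genes, so the spread is not read as particular to replication genes. The median coefficient of variation within a group was 9.96% over the members, from 6.09% for MCM6 to 20.1% for POLA2. In bulk RNA, fewer cells in S phase and less RNA per cell cannot be told apart.

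**Figure D1:**
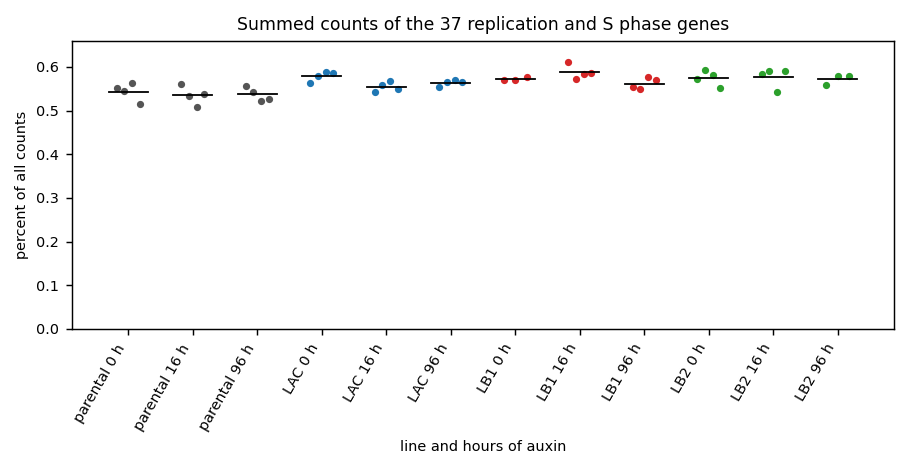
Share of all counts taken by the 37 replication and S phase genes together (y axis, percent) in each of the 46 libraries (points), by line and hours of auxin (x axis), with the group mean as a line. All libraries lie between 0.507% and 0.611%, and the 3 parental means of this share lie below those of the tagged lines.

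Levels between genes were compared per kilobase of exon. PCNA, the sliding clamp, stood highest with a mean of 331 CPM per kb over the 12 groups, followed by TK1 (159 CPM per kb) and RRM1, the large subunit of ribonucleotide reductase (104 CPM per kb). The 6 subunits of the MCM ring, which assemble in equal numbers, were not equal in CPM per kb. MCM7 measured 83.8, MCM3 76.5, MCM6 64.8, MCM4 59.0, MCM2 41.3 and MCM5 26.3 CPM per kb. The lowest levels per kb were those of polymerase alpha, which starts each new strand: POLA1 measured 4.99 CPM per kb and POLA2 1.88. Exon lengths came from the table and include exons that these cells may not use. They were 9852 bases for MCM4, 4386 for MCM7 and 15547 for POLA1, so the order depends on them. In CPM not divided by length, MCM4 stood above MCM7, at 506 against 314 in the parental line at 0 h.

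Before auxin, the LAC line already differed from the parental line in 13 of the 37 genes. 11 were higher and 2 lower by edgeR's quasi-likelihood test at an adjusted p under 0.05, where 15.8% of all genes tested passed in either direction, 8.71% higher and 7.08% lower. The higher genes came from most roles. They were the licensing genes ORC1, CDT1, MCM2, MCM4 and MCM7, the helicase activation genes MCM10, GINS3 and GINS4, the flap nuclease FEN1, TK1, and CHAF1A, the large subunit of the chromatin assembly factor that places histones on new DNA. The lower genes were POLE2 and CCNE2, which encodes cyclin E2.

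CHAF1A measured 60.7, 48.3, 57.0 and 56.1 CPM in the parental libraries at 0 h and 140, 68.2, 90.2 and 86.7 CPM in the LAC libraries. All LAC values lay above all parental values, and replicate 1 was the highest. The log2 fold change was 0.78 (SE 0.16, adjusted p = 0.000527 by edgeR), and without LAC 0 h replicate 1 it was 0.58. FEN1, which removes the primers of the lagging strand, measured 101, 98.0, 92.9 and 94.5 CPM in the parental line and 180, 136, 150 and 153 CPM in LAC, again without overlap (log2 fold change 0.68, SE 0.14, edgeR adjusted p = 0.000523). MCM2 measured 154, 164, 191 and 140 CPM in the parental line and 239, 218, 256 and 262 CPM in LAC (log2 fold change 0.59, SE 0.15, edgeR adjusted p = 0.00385). For MCM2 replicate 1 was not the extreme LAC library. TK1 measured 317, 280, 312 and 281 CPM in the parental line and 596, 383, 439 and 431 CPM in LAC (log2 fold change 0.63, SE 0.14, edgeR adjusted p = 0.00151). In the opposite direction POLE2 measured 15.0, 17.8, 12.7 and 15.5 CPM in the parental line and 6.15, 14.0, 7.94 and 9.80 CPM in LAC (log2 fold change -0.60, SE 0.21, edgeR adjusted p = 0.0426), so that LAC replicate 2 fell among the parental values. CCNE2, at 25.2, 32.9, 29.6 and 23.9 CPM in the parental line, measured 12.3, 26.1, 14.8 and 20.1 CPM in LAC (log2 fold change -0.55, SE 0.19, edgeR adjusted p = 0.0371).

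In 12 of the 37 genes all LAC libraries at 0 h lay above all parental ones, against 8.42% of all genes tested, and in none of the 37 did they all lie below, against 8.28%. The median log2 difference of the members was 0.21, 0.16 with RLE scaling (relative log expression) and 0.02 by library size alone, while that of all genes was -0.06, -0.12 and -0.24. By library size alone 6 members were higher and 3 lower, where 17.5% of all genes were called. Without LAC 0 h replicate 1 the calls were 13 higher and 0 lower, of which 9 were shared with the full set: CDT1 (log2 fold change 0.42), GINS4 (0.19), POLE2 (-0.46) and CCNE2 (-0.40) were lost. GINS4 measured 101 CPM in that library and 53.4 to 65.8 CPM in the other 3. Leaving out LAC 0 h replicate 3 or 4 also lost both POLE2 and CCNE2, and so did leaving out parental 0 h replicate 1 or 2. CCNE2 was lost without parental 0 h replicate 3, and POLE2, MCM4 and GINS4 were lost without parental 0 h replicate 4.

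The LB2 line differed from the parental line at 0 h chiefly in PCNA. Called higher were 3 members and lower 0, where 8.21% of all genes passed in either direction, 3.91% higher. PCNA measured 413, 378, 373 and 346 CPM in the parental line and 556, 775, 586 and 603 CPM in LB2 (log2 fold change 0.74, SE 0.11, edgeR adjusted p = 4.07e-06). The groups did not overlap, and PCNA stayed high in LB2 with auxin, at 680 ± 33.6 CPM (SD, n = 4) at 16 h and 592 ± 61.5 CPM (SD, n = 3) at 96 h. The lowest LB2 library in the series, 548 CPM, was above the highest library of any other line, 481 CPM. POLE2 measured 13.3, 25.0, 23.3 and 34.9 CPM in LB2 (log2 fold change 0.69, SE 0.21, edgeR adjusted p = 0.0264), against 15.0, 17.8, 12.7 and 15.5 CPM in the parental line. MCM6 measured 274, 312, 300 and 296 CPM, against 228, 248, 252 and 221 CPM (log2 fold change 0.32, SE 0.11, edgeR adjusted p = 0.0488), without overlap. POLE2 was therefore lower than parental in LAC and higher in LB2. Leaving out LB2 0 h replicate 4, with 34.9 CPM of POLE2 against 13.3 to 25.0 CPM in the others, gave 0.51 and ended the call. Without LB2 0 h replicate 1 the LB2 count was 8 higher and 1 lower, and PCNA kept its call under each single library left out, with log2 fold changes of 0.62 to 0.82. POLE2 also lost its call without LB2 0 h replicate 2 or parental 0 h replicate 1, 3 or 4. MCM6 kept its call only without LB2 0 h replicate 1.

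Between LB1 and the parental line at 0 h no member was called by edgeR (4.05% of all genes passed), with 5 at an unadjusted p under 0.05. Shares of all genes at the unadjusted threshold are not given here or below, so such counts are not read as an excess. DESeq2 called 1 (4.79% of all genes). LB1 nevertheless had 8 members with all libraries above the parental ones, against 7.55% of all genes, among them PCNA at 436, 420 and 444 CPM.

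**Figure D2:**
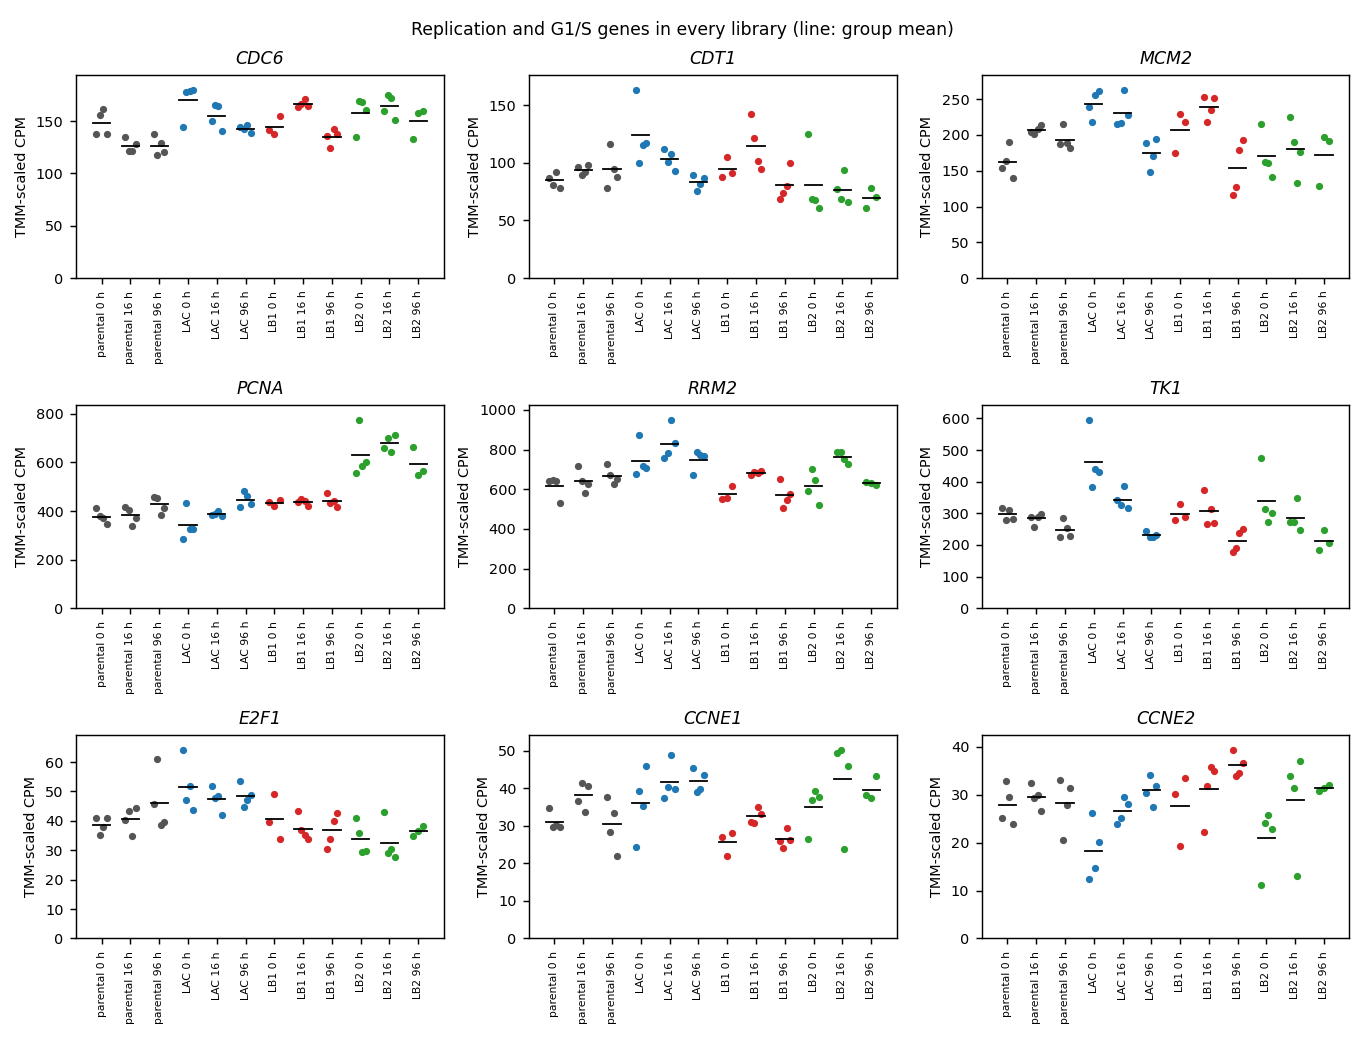
TMM-scaled CPM (y axes, starting at 0) of 9 replication and G1/S genes in every library (points), by line and hours of auxin, with group means as lines. PCNA is high in all LB2 groups, TK1 is highest in LAC at 0 h and falls with time there, and MCM2 is lowest in LB1 at 96 h.

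In the parental line auxin moved none of the 37 genes past the threshold. At 16 h 0 members were called by edgeR where 9.01% of all genes were, with 6 at an unadjusted p under 0.05. DESeq2 called 2 (9.83% of all genes), and edgeR called 1 without parental 0 h replicate 2. At 96 h the count was again 0, where 7.78% of all genes were called, with 3 at an unadjusted p under 0.05. DESeq2 called 1 (9.18% of all genes). Between 16 and 96 h it was 0 of 37, with 0.265% of all genes called, 1 member at an unadjusted p under 0.05 and 0 by DESeq2. CDC6, the loader of the MCM ring, measured 137.8, 156, 162 and 138 CPM at 0 h, 135, 121, 122 and 129 CPM at 16 h and 137.5, 118, 129 and 121 CPM at 96 h (log2 fold change at 96 h -0.23, SE 0.10, edgeR adjusted p = 0.135). In CDC6 all treated libraries lay below all untreated ones at both times. Its partner CDT1 measured 87.0, 81.0, 92.4 and 78.5 CPM at 0 h, 96.7, 89.3, 92.2 and 97.8 CPM at 16 h and 78.0, 116, 94.9 and 88.0 CPM at 96 h, where the 3 groups overlapped. MCM2 measured 154, 164, 191 and 140 CPM at 0 h, 205, 201, 208 and 214 CPM at 16 h and 188, 215, 188 and 182 CPM at 96 h (log2 fold change 0.35 at 16 h, SE 0.15, edgeR adjusted p = 0.114). All MCM2 libraries at 16 h lay above all at 0 h, and those at 96 h overlapped both groups. PCNA measured 418, 406, 337 and 372 CPM at 16 h and 458, 454, 385 and 412 CPM at 96 h, and RRM2, the small subunit of ribonucleotide reductase, 642, 645, 642 and 530 CPM at 0 h, 719, 641, 581 and 628 CPM at 16 h and 727, 670, 626 and 651 CPM at 96 h. For both the groups overlapped, with RRM2 lowest in parental 0 h replicate 4. E2F1 measured 40.9, 35.2, 37.8 and 40.8 CPM at 0 h, 40.3, 43.3, 34.8 and 44.3 CPM at 16 h and 45.6, 60.9, 38.5 and 39.6 CPM at 96 h, with parental 96 h replicate 2 the highest. CCNE1 measured 34.7, 29.7, 30.1 and 29.7 CPM at 0 h, 36.8, 41.5, 33.7 and 40.6 CPM at 16 h and 37.6, 28.4, 33.5 and 22.0 CPM at 96 h, and CCNE2 32.5, 29.4, 30.0 and 26.5 CPM at 16 h and 33.1, 20.5, 27.8 and 31.4 CPM at 96 h. Both cyclin E genes overlapped between all times.

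Under auxin, RNA of TK1, CHAF1A and GINS4 fell in the LAC line by 96 h. At 96 h against 0 h 9 of the 37 genes were lower and 3 higher, where edgeR called 15.4% of all genes tested, 8.64% lower and 6.74% higher. At 16 h 0 members were called (1.78% of all genes), with 5 at an unadjusted p under 0.05. DESeq2 called 2 (3.43% of all genes), and 5 members were called by edgeR without LAC 0 h replicate 2. From 16 to 96 h 1 member, TK1, was called lower (5.27% of all genes were called, 3.22% lower), and 11 members with only the 8 libraries of those 2 groups in the fit, where 20.9% of the genes tested were called.

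Among the licensing genes of LAC, CDT1 and MCM2 were lower at 96 h and the other 8 did not pass. CDC6 was one of these, with 145, 178, 179 and 180 CPM at 0 h, 150, 166, 165 and 140 CPM at 16 h and 144, 142, 147 and 139 CPM at 96 h (log2 fold change at 96 h -0.26, SE 0.10, edgeR adjusted p = 0.0666). LAC 0 h replicate 1 was the lowest of its group and lay inside the range at 96 h. CDT1, which brings the MCM ring to the origin, measured 164, 99.97, 116 and 117 CPM at 0 h, 112, 101, 108 and 93.0 CPM at 16 h and 89.6, 75.1, 81.5 and 86.6 CPM at 96 h (log2 fold change -0.57, SE 0.16, edgeR adjusted p = 0.00947). All libraries at 96 h lay below all at 0 h and below all at 16 h. Without LAC 0 h replicate 1, the highest of them, the value was -0.40 (edgeR adjusted p = 0.0816) and the call was lost. MCM2 measured 239, 218, 256 and 262 CPM at 0 h, 216, 217, 263 and 229 CPM at 16 h and 189, 148, 170 and 194 CPM at 96 h (log2 fold change -0.48, SE 0.14, edgeR adjusted p = 0.0190). MCM3 and MCM6 of the same ring had log2 fold changes of 0.21 and 0.00, and over the 6 subunits they ran from -0.48 to 0.21. The MCM2 call was lost without LAC 0 h replicate 4, LAC 96 h replicate 2 or LAC 96 h replicate 3, with -0.42, -0.40 and -0.46.

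Of the helicase activation genes, GINS4, a subunit of the GINS complex, was lower. It measured 101, 54.1, 53.4 and 65.8 CPM at 0 h, 49.99, 58.2, 63.5 and 57.8 CPM at 16 h, and 47.7, 42.7, 46.6 and 40.3 CPM at 96 h (log2 fold change -0.61, SE 0.13, edgeR adjusted p = 0.000915). The groups at 0 and 96 h did not overlap, and without LAC 0 h replicate 1 the value was -0.37 and remained called. Of its exon bases 21.0% overlap an unnamed gene on the other strand. GINS1, GINS2 and GINS3, its partners in the complex, did not pass.

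The polymerases went both ways in LAC. POLD1 measured 267, 124, 150 and 137 CPM at 0 h, 142, 121, 130 and 120 CPM at 16 h and 105, 85.0, 96.8 and 111 CPM at 96 h (log2 fold change -0.76, SE 0.21, edgeR adjusted p = 0.00879). The call rested on LAC 0 h replicate 1: without it the value was -0.45 (edgeR adjusted p = 0.129). POLE, the catalytic subunit of polymerase epsilon, was lower by a log2 fold change of -0.33 (SE 0.12, edgeR adjusted p = 0.0438), a call lost without any of LAC 0 h replicates 3 or 4 or LAC 96 h replicates 2, 3 or 4, with values of -0.22 to -0.35. POLE2, of the same complex, was higher. It measured 6.15, 14.0, 7.94 and 9.80 CPM at 0 h, 13.5, 14.8, 14.1 and 17.8 CPM at 16 h and 14.0, 18.3, 16.3 and 14.2 CPM at 96 h (log2 fold change 0.64, SE 0.20, edgeR adjusted p = 0.0244). At 96 h it measured 15.7 ± 2.02 CPM (SD, n = 4), against 14.4 ± 2.99 CPM (SD, n = 4) in the parental line at that time. The call was lost without LAC 0 h replicate 1 (0.53), 3 or 4, or without LAC 96 h replicate 2 or 3.

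PCNA was higher in LAC at 96 h, with 286, 432, 326 and 327 CPM at 0 h, 384, 387, 399 and 381 CPM at 16 h, and 416, 481, 463 and 430 CPM at 96 h (log2 fold change 0.38, SE 0.11, edgeR adjusted p = 0.0127). LAC 0 h replicate 2 overlapped the range at 96 h, and without LAC 0 h replicate 1 or LAC 96 h replicate 2 the values of 0.32 and 0.35 did not pass. FEN1 measured 180, 136, 150 and 153 CPM at 0 h and 126, 105, 112 and 119 CPM at 96 h (log2 fold change -0.42, SE 0.14, edgeR adjusted p = 0.0290). FEN1 lost its call without LAC 0 h replicate 1 (-0.33) or 4, or LAC 96 h replicate 2 or 3. The 4 subunits of the clamp loader in the list, RFC2, RFC3, RFC4 and RFC5, did not pass.

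TK1 had the largest fold change among the members. In LAC it measured 596, 383, 439 and 431 CPM at 0 h, 343, 327, 385 and 318 CPM at 16 h and 243, 226, 225 and 232 CPM at 96 h. Every library at 96 h lay below every library at 16 h, and only LAC 16 h replicate 3 reached above the lowest library at 0 h. The log2 fold change was -0.99 from 0 to 96 h (SE 0.14, edgeR adjusted p = 2.94e-06) and -0.57 from 16 to 96 h (SE 0.14, edgeR adjusted p = 0.0100). Without LAC 0 h replicate 1 the first was -0.84, and both calls held whichever library was left out. The endpoint of 232 ± 8.24 CPM (SD, n = 4) was near the parental level of 248 ± 28.7 CPM (SD, n = 4) at 96 h, whereas the starting level of 462 ± 92.4 CPM stood above the parental 297 ± 19.6 CPM. RRM1 and RRM2 did not pass in LAC. RRM2 measured 676, 875, 718 and 708 CPM at 0 h, 756, 782, 950 and 834 CPM at 16 h and 673, 786, 771 and 770 CPM at 96 h (log2 fold change at 96 h 0.01, SE 0.11).

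Of the G1/S regulators CCNE2 was higher in LAC. It measured 12.3, 26.1, 14.8 and 20.1 CPM at 0 h, 23.8, 25.1, 29.4 and 28.0 CPM at 16 h and 30.4, 34.2, 27.5 and 31.8 CPM at 96 h (log2 fold change 0.69, SE 0.18, edgeR adjusted p = 0.00687). All libraries at 96 h lay above all at 0 h. Of its exon bases 37.0% overlap INTS8 on the other strand, and whether the counting used strand is not given in the sources used here, so its reads may be shared. CCNE1, which encodes cyclin E1, and E2F1, the transcription factor that activates many S phase genes, did not pass. E2F1 measured 64.1, 47.0, 51.8 and 43.7 CPM at 0 h, 52.0, 47.7, 48.6 and 42.0 CPM at 16 h and 53.5, 44.8, 47.3 and 48.8 CPM at 96 h (log2 fold change at 96 h -0.07, SE 0.14), and CCNE1 24.3, 39.3, 35.4 and 45.9 CPM at 0 h, 37.3, 40.5, 48.8 and 39.8 CPM at 16 h and 45.3, 39.0, 40.0 and 43.6 CPM at 96 h. Both genes overlapped between the times.

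Both chromatin assembly genes were lower in LAC at 96 h. CHAF1A measured 140, 68.2, 90.2 and 86.7 CPM at 0 h, 73.4, 73.5, 70.2 and 65.5 CPM at 16 h, and 66.3, 43.3, 49.8 and 61.2 CPM at 96 h (log2 fold change -0.79, SE 0.16, edgeR adjusted p = 0.000430). The groups at 0 and 96 h did not overlap, and without LAC 0 h replicate 1 the value was -0.55 and remained called. CHAF1B, its partner subunit, had a log2 fold change of -0.39 (SE 0.14, edgeR adjusted p = 0.0401), which was -0.21 without that library and no longer called. CHAF1B also lost its call without LAC 0 h replicate 2 or LAC 96 h replicate 2, 3 or 4.

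The LAC count at 96 h depended on the fit. Without LAC 0 h replicate 1 it was 8 lower and 1 higher, with 6 of the 12 calls shared, without LAC 96 h replicate 2 it was 5 lower and 1 higher, and without LAC 96 h replicate 3 it was 5 lower and 2 higher. By library size alone 6 were lower and 8 higher, where 18.1% of all genes were called. The members' median log2 fold change then moved from -0.08 to 0.04 (all genes 0.03 and 0.15). With only the 8 libraries of LAC at 0 and 96 h in the fit, 1 member was called, TK1, where 6.22% of the genes tested were.

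The difference between the LAC and the parental response at 96 h was tested directly. It was called for 7 of the 37 genes, where 7.4% of all genes passed. Of these, 6 were lower, against 4.3% of all genes, and 1 higher, against 3.1%. CHAF1A (-0.94, SE 0.22, edgeR adjusted p = 0.00810), TK1 (-0.73, SE 0.20, edgeR adjusted p = 0.0211) and MCM2 (-0.73, SE 0.21, edgeR adjusted p = 0.0238) had lower responses in LAC than in the parental line on the log2 scale, and so did CDT1 (-0.72), GINS4 (-0.64) and FEN1 (-0.63). In the parental line CHAF1A measured 60.7, 48.3, 57.0 and 56.1 CPM at 0 h and 51.6, 73.2, 62.1 and 60.5 CPM at 96 h, so these groups overlapped. TK1 measured 317, 280, 312 and 281 CPM and 224, 286, 255 and 228 CPM at the same times, which also overlapped. RFC4 had the positive difference (0.56, SE 0.18, edgeR adjusted p = 0.0497). RFC4 measured 46.0, 41.1, 33.2 and 39.1 CPM at 0 h and 45.7, 48.8, 52.1 and 50.9 CPM at 96 h in LAC, against 51.3, 37.4, 46.3 and 42.3 CPM and 39.6, 45.1, 32.5 and 32.2 CPM in the parental line, and in neither line alone did it pass. Its call was lost without any 1 of 15 of the 16 libraries, and held only without parental 96 h replicate 1. CHAF1A and TK1 kept theirs whichever library was left out. Without parental 96 h replicate 2 the count was 3, without parental 0 h replicate 4 it was 2, without LAC 96 h replicate 2 it was 2 and without LAC 96 h replicate 3 it was 3, all of them lower. Without parental 0 h replicate 4 or LAC 96 h replicate 2 CDT1, MCM2, GINS4 and FEN1 were lost, without parental 96 h replicate 2 or LAC 96 h replicate 3 CDT1, MCM2 and FEN1, and without LAC 0 h replicate 1 CDT1 (-0.59) and GINS4 (-0.44). GINS4 was also lost without LAC or parental 96 h replicate 4, FEN1 without parental 0 h replicate 3 and CDT1 without parental 96 h replicate 3. By library size alone 1 was lower and 3 higher (8.21% of all genes called), and by DESeq2 6 lower and 2 higher (8.91%). At 16 h the same difference was called for 0 members by edgeR (0.116% of all genes), with 3 at an unadjusted p under 0.05 and 0 by DESeq2.

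The changes in LAC ran with the GC content of the genes. Across the 37 members, which share the same libraries, Spearman's rho between GC content and log2 fold change at 96 h was -0.71, and across 8547 well expressed genes it was -0.66. At 16 h it was -0.73 for the members, and in the parental line at 96 h -0.04. Of the 16 members with at least 50% GC, 7 were lower and 0 higher at 96 h, with a median of -0.31. Of the 21 below 50% GC, 2 were lower and 3 higher, with a median of 0.01. The difference of LAC from the parental line at 0 h had a rho of 0.65. It shares the LAC libraries at 0 h with the LAC changes from 0 h, with the opposite sign, so these rho values are not independent. In LAC from 16 to 96 h, without those libraries, rho was -0.54 for the members and -0.22 across the 8547 genes. With a trend on GC and length removed from each library, 6 members were lower and 4 higher (12.3% of all genes, 6.07% lower and 6.23% higher), 7 of them shared with the fit without it. GINS4 (-0.61), TK1 (-0.49), CHAF1A (-0.46), CHAF1B (-0.38), POLE2 (0.51), CCNE2 (0.40) and PCNA (0.32) remained. CDT1 (-0.03), POLD1 (-0.16), MCM2 (-0.19), POLE (-0.11) and FEN1 (-0.22) did not, and CDC6 (-0.35), MCM4 (-0.28) and MCM3 (0.32) were called in their place. Of the 7 differences from the parental response, GINS4 (-0.63), CHAF1A (-0.59) and FEN1 (-0.45) remained, and TK1 (-0.27, edgeR adjusted p = 0.294) did not. The part of GC content in these changes was not tested.

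**Figure D3:**
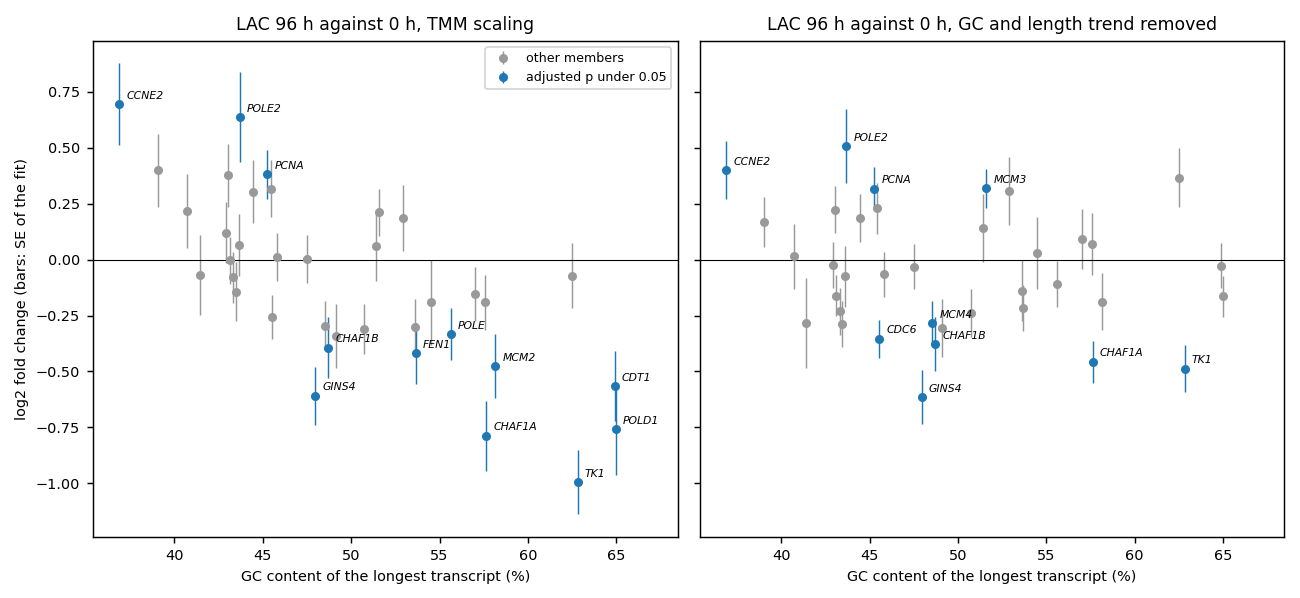
Log2 fold change of the 37 genes in LAC from 0 to 96 h of auxin (y axes, bars are SE of the fit) against GC content of the longest transcript (x axes, percent), with TMM scaling on the left and after removal of a trend on GC and length on the right. Blue points have an edgeR adjusted p under 0.05. The slope from CCNE2 at the left to TK1, CDT1 and POLD1 at the right in the first panel is absent in the second, where TK1, CHAF1A and GINS4 remain low.

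In the LB1 line 6 of the 10 licensing genes, ORC1, CDC6, CDT1, MCM2, MCM4 and MCM5, fell from 16 to 96 h of auxin with TMM scaling. By library size alone the calls over all members were 5 higher and 3 lower, the 3 being MCM2, MCM4 and GINS4, where 21% of all genes were called. Of the 37 genes 12 were lower and 0 higher in that comparison, where edgeR called 20.4% of all genes tested, 10.9% lower and 9.53% higher. Besides the 6 licensing genes they were 2 of 6 helicase activation genes, 0 of 7 polymerase and primase genes, 1 of 6 genes of the clamp, its loader and flap removal, 2 of 3 of nucleotide supply, 0 of 3 G1/S regulators and 1 of 2 of chromatin assembly. Against 0 h the same line had no called member at either time. At 16 h edgeR called 0 members (1.5% of all genes), with 4 at an unadjusted p under 0.05, and at 96 h 0 (3.17%), with 5, and DESeq2 called 0 at both times. The level at 16 h was above that at 0 h in many members without passing the test: 11 of 37 had all libraries at 16 h above all at 0 h, against 9.94% of all genes.

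MCM2 measured 175, 229 and 219 CPM in LB1 at 0 h, 253, 219, 235 and 251 CPM at 16 h and 117, 127, 179 and 193 CPM at 96 h. All libraries at 96 h lay below all at 16 h, with replicates 1 and 2 lowest, and the range at 96 h overlapped that at 0 h. The log2 fold change from 16 to 96 h was -0.64 (SE 0.14, edgeR adjusted p = 0.00135). Of its exon bases 23.6% overlap an unnamed gene on the other strand. MCM4 had -0.48 (SE 0.11, edgeR adjusted p = 0.00137) and MCM5 -0.33 (SE 0.12, edgeR adjusted p = 0.0434). All 6 ring subunits had negative values, from -0.12 for MCM3 to -0.64 for MCM2. MCM6 measured 269, 278, 306 and 293 CPM at 16 h and 233, 206, 268 and 258 CPM at 96 h, which did not overlap but did not pass (log2 fold change -0.25, SE 0.10, edgeR adjusted p = 0.0822).

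CDC6 measured 142, 137 and 155 CPM in LB1 at 0 h, 164, 167, 171 and 164 CPM at 16 h and 136, 124, 142 and 138 CPM at 96 h (log2 fold change from 16 to 96 h -0.30, SE 0.10, edgeR adjusted p = 0.0234). The libraries at 16 h lay above all others of the line. CDT1 measured 88.1, 105 and 91.2 CPM at 0 h, 142, 121, 101 and 94.9 CPM at 16 h and 69.0, 74.1, 80.2 and 100 CPM at 96 h, with LB1 96 h replicate 4 inside the range at 16 h (log2 fold change -0.51, SE 0.16, edgeR adjusted p = 0.0173). ORC1, the largest subunit of the origin recognition complex, fell by 0.30 on the log2 scale (SE 0.11, edgeR adjusted p = 0.0489). ORC6 did not pass (0.13).

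GINS4 measured 73.0, 59.0, 60.9 and 57.6 CPM at 16 h and 42.0, 36.5, 47.9 and 45.4 CPM at 96 h (log2 fold change -0.54, SE 0.13, edgeR adjusted p = 0.00225), without overlap. MCM10, which joins the activated helicase, had -0.33 (SE 0.12, edgeR adjusted p = 0.0345). FEN1 measured 160, 142, 142 and 133 CPM at 16 h and 82.4, 89.4, 125 and 125 CPM at 96 h (log2 fold change -0.45, SE 0.14, edgeR adjusted p = 0.0145). TK1 measured 374, 268, 315 and 271 CPM at 16 h and 178, 190, 237 and 252 CPM at 96 h (log2 fold change -0.52, SE 0.14, edgeR adjusted p = 0.00761). Neither gene overlapped between the times. RRM1 (-0.38, edgeR adjusted p = 0.0333) and CHAF1B (-0.39, edgeR adjusted p = 0.0325) completed the called set.

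PCNA was not called in this comparison, at 439, 448, 442 and 420 CPM at 16 h and 474, 433, 441 and 415 CPM at 96 h (log2 fold change 0.01, SE 0.11, edgeR adjusted p = 0.948). The polymerase genes had a median of 0.11, and POLE2 measured 16.6, 19.8, 22.8 and 19.6 CPM at 16 h and 29.1, 24.7, 22.7 and 25.9 CPM at 96 h (log2 fold change 0.37, SE 0.19, edgeR adjusted p = 0.159), overlapping by 1 library of each group. E2F1 measured 39.6, 49.1 and 33.7 CPM at 0 h, 43.5, 36.9, 35.2 and 33.8 CPM at 16 h and 30.6, 33.8, 40.0 and 42.7 CPM at 96 h (log2 fold change from 16 to 96 h -0.02, SE 0.15), and CCNE2 30.2, 19.2 and 33.4 CPM at 0 h, 22.3, 31.8, 35.8 and 34.8 CPM at 16 h and 39.3, 33.9, 34.6 and 36.5 CPM at 96 h. Both overlapped between all times, except that CCNE2 at 96 h lay above all libraries at 0 h. RRM2 measured 552, 558 and 615 CPM at 0 h, 673, 685, 684 and 691 CPM at 16 h and 653, 506, 547 and 578 CPM at 96 h (log2 fold change from 16 to 96 h -0.26, SE 0.11, edgeR adjusted p = 0.0736), and CCNE1 27.2, 21.9 and 28.0 CPM at 0 h, 31.0, 30.9, 35.1 and 33.1 CPM at 16 h and 25.9, 24.1, 29.5 and 26.1 CPM at 96 h. Both had all libraries at 96 h below all at 16 h but did not pass.

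The LB1 fall depended on scaling. The members' median was -0.26 with TMM, -0.15 with RLE and -0.07 by library size alone, while the median of all genes was 0.08, 0.19 and 0.27. These scalings shift all genes of a library together. The calls, 0 higher and 12 lower with TMM, were 2 and 4 with RLE (19.9% of all genes called), 3 and 5 with DESeq2 (20.9%), and 5 and 3 by library size alone (21%). MCM2, MCM4 and GINS4 were lower under each of these. Leaving out single libraries gave 4 lower members (without LB1 96 h replicate 2) to 11 (without LB1 16 h replicate 4), always with 0 higher, and the counts were 6 without LB1 96 h replicate 1, 6 without LB1 96 h replicate 4 and 7 without LB1 16 h replicate 2. MCM2, MCM4, GINS4 and TK1 kept their calls whichever library was left out. Each of the other 8, ORC1, CDC6, CDT1, MCM5, MCM10, FEN1, RRM1 and CHAF1B, lost its call without LB1 96 h replicate 2 (log2 fold changes of -0.26 to -0.46), and ORC1, CDT1, MCM5, MCM10, FEN1, RRM1 and CHAF1B also without LB1 96 h replicate 1. Without LB1 96 h replicate 4, ORC1, CDC6, MCM5, MCM10, RRM1 and CHAF1B were lost, and without LB1 16 h replicate 2, ORC1, MCM5, MCM10, RRM1 and CHAF1B. MCM5 and CHAF1B were lost with CDT1 without LB1 16 h replicate 1. ORC1 and RRM1 were lost without LB1 16 h replicate 3 or 4, with MCM5 in the first case, and ORC1 and CHAF1B without LB1 96 h replicate 3. In 15 of the 37 genes all libraries at 96 h lay below all at 16 h, against 12.7% of all genes, and in 1, POLA1, all lay above, against 13%. With the GC and length trend removed 12 were lower and 1, POLE (0.31), higher (25.6% of all genes, 14.4% lower and 11.2% higher), with 10 calls shared.

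Whether the LB1 change from 16 to 96 h differed from that of the parental line was tested in a comparison added after the values were seen. It was called for 0 of 37 members by edgeR (1.15% of all genes), with 8 at an unadjusted p under 0.05 and 0 by DESeq2. The 1.15% is at the adjusted threshold and is no measure for the 8 members. FEN1 came closest (-0.62, SE 0.19, edgeR adjusted p = 0.0935), followed in size by MCM2 (-0.54, SE 0.20, edgeR adjusted p = 0.172) and CDT1 (-0.51, SE 0.22, edgeR adjusted p = 0.230). The members' median difference was -0.21, against 0.03 for all genes. The difference against 0 h from the parental response was called for 0 members at 16 h (0.0279% of all genes), with 2 at an unadjusted p under 0.05, and for 0 at 96 h (1.04%), with 3, and DESeq2 called 0 at both. Without the 6 libraries under 5000000 counts the difference from 16 to 96 h was called for 4 members, all lower, where 8.68% of the genes tested in that fit were called. With the GC and length trend removed it was called for 1, FEN1 (-0.55, edgeR adjusted p = 0.0214), where 4.04% of all genes were.

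**Figure D4:**
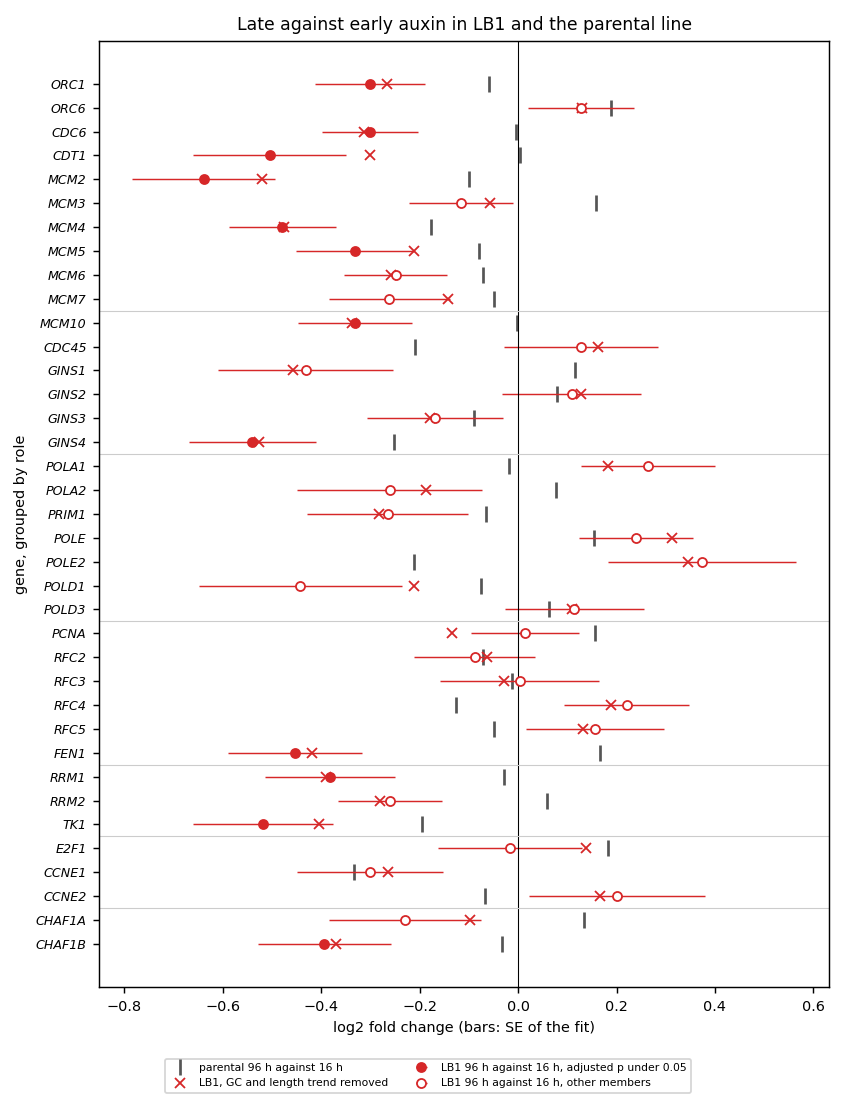
Log2 fold change from 16 to 96 h of auxin (x axis) of each of the 37 genes (y axis, grouped by role) in LB1 (circles with SE of the fit, filled where the edgeR adjusted p is under 0.05), in LB1 with the GC and length trend removed (crosses) and in the parental line (bars). The filled circles, at -0.30 to -0.64, are 6 licensing genes and 6 others. The polymerase genes, none of them called, are spread from -0.44 for POLD1 to 0.37 for POLE2.

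The LB2 line changed in 1 member. TK1 was lower at 96 h against 0 h, the only one called of 37, where 3.55% of all genes were, 1.6% lower. It measured 476, 313, 272 and 300 CPM at 0 h, 272, 273, 348 and 248 CPM at 16 h and 184, 248 and 208 CPM at 96 h (log2 fold change -0.67, SE 0.16, edgeR adjusted p = 0.00708). All libraries at 96 h lay below all at 0 h, and LB2 0 h replicate 1 was the highest. Without that library it was -0.46 and remained called, and without LB2 96 h replicate 1 or 3 it was -0.55 and -0.64 and did not pass. At 16 h and 96 h PCNA in LB2 measured 659, 702, 644 and 714 CPM and 662, 548 and 566 CPM. CDC6 measured 135, 169, 168 and 161 CPM at 0 h, 160, 175, 172 and 151 CPM at 16 h and 133, 158 and 160 CPM at 96 h, and CDT1 125, 68.4, 67.7 and 60.6 CPM at 0 h, 77.5, 68.9, 93.5 and 66.2 CPM at 16 h and 61.1, 77.8 and 70.0 CPM at 96 h. CDC6 was lowest, and CDT1 highest, in LB2 0 h replicate 1 within that group, and both overlapped between the times. MCM2 measured 216, 162, 161 and 141 CPM at 0 h, 224, 190, 133 and 177 CPM at 16 h and 128, 197 and 191 CPM at 96 h, and RRM2 593, 703, 645 and 519 CPM at 0 h, 787, 790, 755 and 727 CPM at 16 h and 638, 632 and 620 CPM at 96 h. RRM2 at 16 h lay above all libraries at both other times without passing (log2 fold change 0.31, SE 0.11, edgeR adjusted p = 0.116). E2F1 measured 41.0, 35.8, 29.2 and 29.8 CPM at 0 h, 43.0, 29.1, 30.4 and 27.7 CPM at 16 h and 35.0, 36.5 and 38.4 CPM at 96 h, CCNE1 26.6, 36.9, 39.2 and 37.7 CPM at 0 h, 49.4, 50.2, 23.9 and 46.0 CPM at 16 h and 38.2, 37.4 and 43.2 CPM at 96 h, and CCNE2 11.1, 24.0, 25.7 and 22.9 CPM at 0 h, 34.0, 31.4, 13.1 and 37.1 CPM at 16 h and 30.7, 31.3 and 31.9 CPM at 96 h. CCNE1 and CCNE2 were lowest at 16 h in the shallow library, replicate 3, and CCNE2 at 96 h lay above all libraries at 0 h. At 16 h edgeR called 0 members (1.81% of all genes), with 7 at an unadjusted p under 0.05, and 2 were called when LB2 16 h replicate 3 or LB2 0 h replicate 2 was left out. From 16 to 96 h edgeR called 0 (2.5%), with 7 at an unadjusted p under 0.05, and DESeq2 called 0 in both. The difference from the parental response was called for 0 members at 16 h (0.00465% of all genes), with 0 at an unadjusted p under 0.05, and for 0 at 96 h (0.368%), with 1, and DESeq2 called 0 in both. For the change from 16 to 96 h it was 0 in LB2 (0.0326% of all genes) and 0 in LAC (0.121%), with 2 and 1 at an unadjusted p under 0.05 and 0 by DESeq2 in each.

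TK1 was the member called most often, in 6 of the 24 comparisons. From 0 to 96 h its log2 fold change was -0.26 in the parental line (SE 0.14, edgeR adjusted p = 0.263), -0.99 in LAC and -0.67 in LB2, and from 16 to 96 h it was called in LAC and LB1. At 96 h its 4 group means lay between 213 and 248 CPM, and at 0 h between 297 and 462 CPM. CDT1, FEN1, MCM2 and GINS4 were each called in 4 comparisons. The comparisons share libraries, among them those of LAC at 0 h, so these calls are not independent. 15 members were never called: ORC6, MCM3, CDC45, GINS1, GINS2, POLA1, POLA2, PRIM1, POLD3, RFC2, RFC3, RFC5, RRM2, E2F1 and CCNE1. 12 members had their highest group mean in LAC at 0 h, with replicate 1 included. No share of all genes stands beside the counts in this paragraph, so they are not read as a trait of the members.

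**Figure D5:**
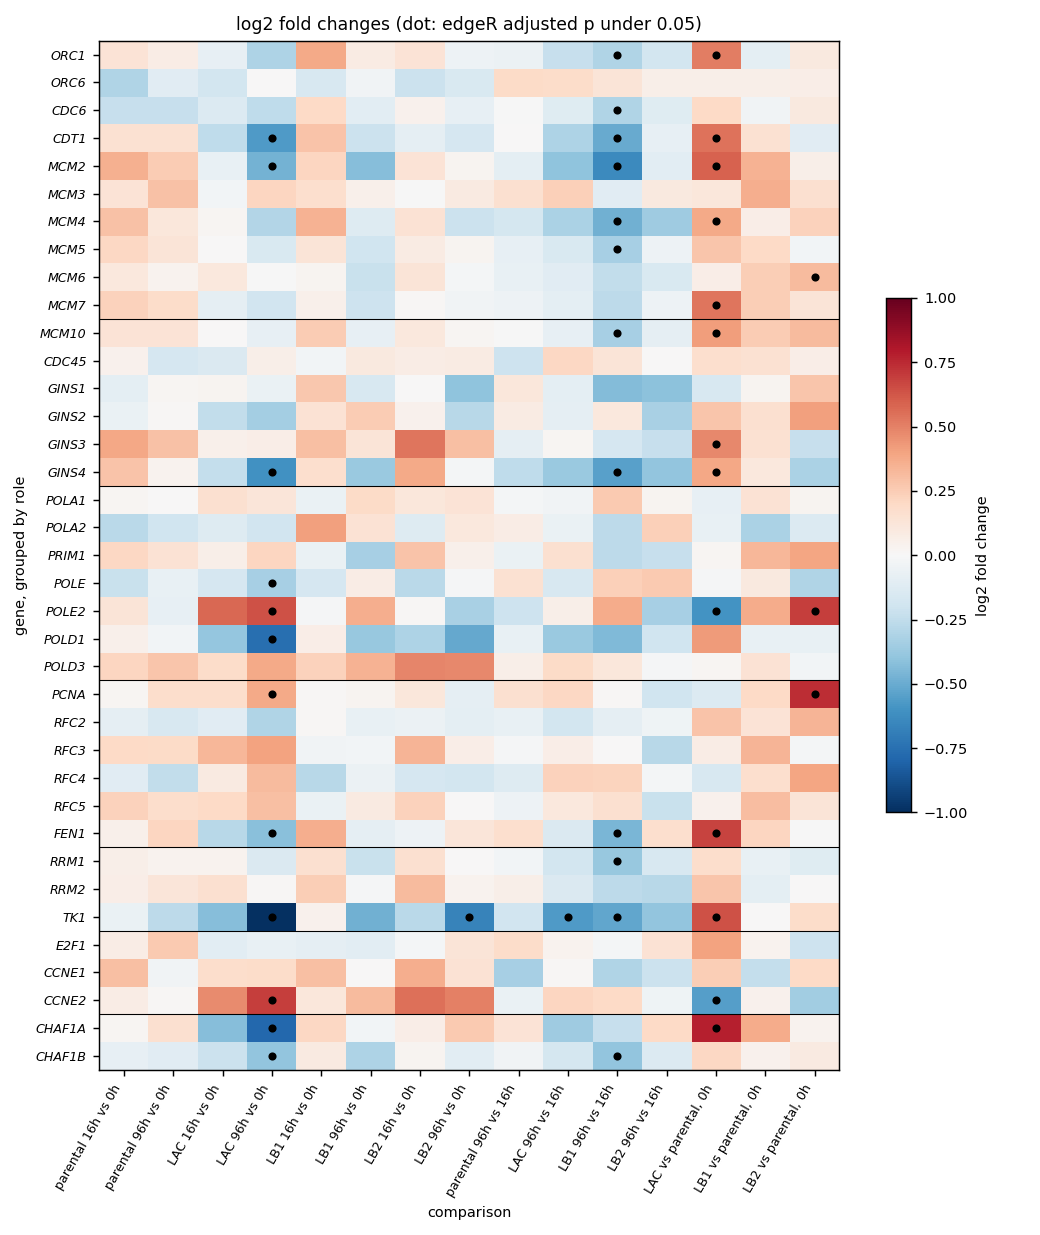
Log2 fold changes of the 37 genes (rows, grouped by role) in 15 comparisons (columns), from blue (lower) to red (higher), with a dot where the edgeR adjusted p is under 0.05. Dots gather in 3 columns, LAC at 96 h against 0 h, LB1 at 96 h against 16 h and LAC against parental at 0 h, and the 3 parental columns hold none.

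Other genes of the cell cycle were read from lists chosen with earlier results of these data known. In LB1 from 16 to 96 h, 17 of 60 further replication and S phase genes were lower and 1 higher, with a median of -0.12, and 9 of 20 mitotic genes were lower and 0 higher, with a median of -0.36, beside 12 of 37 and -0.26 for the members. Of all genes 10.9% were lower and 9.53% higher, with a median of 0.08. The lower ones included CDC25A, the phosphatase that activates CDK2 (-0.77, SE 0.10, edgeR adjusted p = 2.66e-07) and the mitotic kinase PLK1 (-0.91, SE 0.11, edgeR adjusted p = 1.14e-07). Of 12 inhibitor and p53 target genes, 2 were lower, CDKN1C (-0.995) and MDM2 (-0.64), and 1 higher, BTG2 (0.66). In LAC from 0 to 96 h, 8 of the 60 were lower and 6 higher, 5 of the 20 mitotic genes were lower and 0 higher, and 2 of the 12 were higher and 0 lower, where 8.64% of all genes were lower and 6.74% higher. LAC against the parental line at 0 h had 11 higher and 2 lower of the 60, and 5 higher and 1 lower of the 20, where 8.71% of all genes were higher and 7.08% lower.

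The calls were set beside the E2F-like words in the promoter windows above. In LB1 from 16 to 96 h, 3 of the 16 members with a word were lower, with a median of -0.14, and 6 of the 16 without, with a median of -0.28. MCM2, with overlapping words just after its start, and CDC6 were among the lower, while E2F1 and PCNA, which also hold words, lay at -0.02 and 0.01. TK1, without a word, was lower. In LAC from 0 to 96 h, 3 of 16 with a word were lower and 2 higher, and 5 of 16 without were lower and 0 higher. MCM4, MCM5, GINS4, POLD3 and CCNE2 had no window and are not in these counts.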

How the data were processed

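RNA-seq counts were analysed in 46 libraries of 12 groups. The authors deposited raw counts per gene for 62756 genes, 42302 of them with a symbol, made with featureCounts 1.6.4 per the file headers. STAR 2.7.10a, SAMtools 1.10, deepTools 3.4.5, DESeq2 1.40.2, nf-core/rnaseq 1.4.2 and GRCh38 are named per the submitters' processing notes. The strand setting and annotation release of the counting are not given in the sources used here. The lines of 1 gene whose record is broken in the table (3 lines) were left out. Totals per library ran from 479446 to 37309421 counts, and 6 libraries held under 5000000, so precision differs between groups.

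Counts were scaled by TMM, filtered with filterByExpr (21484 genes left) and fitted with edgeR 4.0.16 (R 4.3.3, limma 3.58.1) by quasi-likelihood in 1 model of 12 group terms. Two-sided p-values were adjusted by Benjamini-Hochberg over all tested genes in each of 24 comparisons, with calls at an adjusted p under 0.05. Levels are CPM, counts scaled to a library total of 1000000 with the TMM factors. The trend of each library with GC content and length was also removed by spline offsets (5 degrees of freedom). GC content was known for 92.8% of all genes, and 1034 tested genes had none. A check on simulated data was also run. Its settings and outcome are not given here, so no conclusion on the fits or their alternatives is drawn from it.

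The members and lists were chosen with earlier results of these data known, and the 3 comparisons of a tagged line's change from 16 to 96 h with that of the parental line were added after the values were seen. Full values are given for CDC6, CDT1, MCM2, PCNA, RRM2, E2F1, CCNE1 and CCNE2, and for at most 4 called members in each direction per comparison, those with the largest fold change. Further members named were chosen after their values were seen. Alternatives were RLE scaling, library size alone, no filter, DESeq2 1.42.0, the compared groups alone, a term for the replicate number, the GC and length trend, and fits without shallow libraries, without the 0 h libraries of LAC and LB2 numbered 1, or without each library in turn. Same-numbered libraries of LAC at 0 and 16 h deviated together from their group means in all 4 pairs (correlations of 0.12 to 0.69). No other comparison of times within a line had all pairs over 0.1. A block fit of those 2 groups alone was added after this was seen.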

Additional observations from a re-analysis of the deposited data

Results flagged for a closer look

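Levels of the 16 members described in full, and the summed level, were checked for a library apart from the other 3 in 170 groups of 4 libraries, and 12 stood out by Dixon's 95% criterion, which chance reaches in about 1 in 20 groups. LB2 at 0 h replicate 1 stood out for 3 genes. In it CDT1 measured 124.7 CPM (the other 3 libraries 60.63 to 68.39), POLD1, the catalytic subunit of polymerase delta, 231.7 CPM (at most 93.99), and RFC4, a clamp loader subunit, 41.03 CPM (60.72 to 64.0). LAC at 0 h replicate 1 had CDC6 at 144.7 CPM (177.7 to 180.2). Parental 96 h replicate 2 had POLD1 at 157.4 CPM (109.5 to 113.3) and the flap nuclease FEN1 at 136.7 CPM (101.9 to 105.7). RRM2 was low in parental 0 h replicate 4, at 530.2 CPM (641.7 to 645.2), and in LAC 96 h replicate 1, at 673.4 CPM (769.9 to 785.6). CCNE1 was high in parental 0 h replicate 1, at 34.73 CPM (29.72 to 30.13), and low in LB2 16 h replicate 3, at 23.93 CPM (45.97 to 50.22). That last library also had the lowest share of counts in all members, 0.5433% (0.5831% to 0.5902%). CHAF1A measured 53.35 CPM in LB2 16 h replicate 4 (60.9 to 62.13).

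The change at 96 h differed between LAC and the parental line in 7 members by edgeR's test of the difference, whose adjusted p-values stand with the results above. The difference in log2 fold change was -0.94 for CHAF1A, -0.73 for TK1, -0.73 for MCM2, -0.72 for CDT1, -0.64 for GINS4, -0.63 for FEN1 and 0.56 for RFC4.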

How the results depend on the processing

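Counts of members called moved with the processing in most comparisons, and the cause was not tested. The values below are numbers of members called, and settings not listed for a comparison gave a count within 1.5 times of that in the report. Percentages in brackets are the shares of all genes tested in the same fit that were called. For LAC at 96 h against 0 h (12 members) the count was 6 with no filter on low counts (5.94%) and 1 with the compared groups alone (6.22%). For LAC minus parental at 96 h (7) it was 3 with the GC and length trend removed, with or without the replicate block (7.84% and 7.1%). It was 4 with library size alone (8.21%) and 1 with no filter (3.05%). For LB1 from 16 to 96 h (12) it was 6 with RLE scaling (19.9%) and 5 with no filter (7.25%). For LAC from 16 to 96 h (1) it was 3 with DESeq2, 4 with the trend removed and 5 with the trend removed and the block. It was 2 with RLE scaling, 11 with the compared groups alone and 4 with library size alone. It was 4 without libraries under 5000000 counts and 6 without the 0 h libraries of LAC and LB2 numbered 1. The share of all genes called in LAC from 16 to 96 h was 5.27% in the report. Over the settings listed for it, that share ran from 5.45% (RLE scaling) to 20.9% (compared groups alone). These LAC counts are therefore not read as particular to the members. For LAC against parental at 0 h (13) it was 5 with the compared groups alone (9.06%) and 8 with no filter (5.91%). For LB2 against parental at 0 h (3) it was 6 with DESeq2 and 1 with the compared groups alone. It was 7 without the shallow libraries and 11 without the 0 h libraries numbered 1. The share of all genes called in LB2 against parental was 8.21% in the report. Over the settings listed for it, that share ran from 3.18% (compared groups alone) to 15% (without the libraries numbered 1). These LB2 counts are likewise not read as particular to the members. For LB2 at 96 h (1) it was 2 with DESeq2 (5.1%), RLE scaling (4.01%), library size alone (4.33%), without the shallow libraries (5.41%) or without the libraries numbered 1 (6%). It was 4 with the trend removed with or without the block (7.42% and 6.48%), and 0 with the compared groups alone (0.32%).

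The remaining counts were 0 in the report. The parental line at 16 h had 2 with DESeq2 (9.83%), RLE scaling (8.46%), library size alone (7.94%) or without the shallow libraries (12.3%). It had 3 with the trend removed (14.5%) and 4 with that and the block (15.2%) or without the libraries numbered 1 (17%). With the compared groups alone it had 5 (22.5%). At 96 h it had 3 with the trend removed, with or without the block (14.1% and 13.3%). It had 1 with DESeq2 (9.18%), RLE scaling (7.8%), library size alone (7.58%), the compared groups alone (15.6%), without the shallow libraries (11.7%) or without those numbered 1 (15%). LAC at 16 h had 2 with DESeq2 (3.43%) and 1 with RLE scaling (2.03%) or library size alone (1.94%). LB1 at 16 h had 1 with the trend removed and the block (6.04%) and 2 without the libraries numbered 1 (5.75%). LB1 at 96 h had 1 with the trend removed, with or without the block (6.06% and 6.25%), with the compared groups alone (8.25%) or without the shallow libraries (4.92%). It had 2 without those numbered 1 (5.81%). LB2 at 16 h had 1 with the trend removed (4.64%), without the shallow libraries (2.57%) or without those numbered 1 (3.04%). It had 3 with the trend removed and the block (5.32%). LB2 from 16 to 96 h had 1 with the trend removed (5.54%), 3 with that and the block (6.5%) and 2 without the shallow libraries (9.08%). LB1 minus parental had 1 at 96 h with the compared groups alone (4.14%) or without the libraries numbered 1 (4.3%). From 16 to 96 h it had 1 with the trend removed, with or without the block (4.75% and 4.04%), or with the compared groups alone (6.25%). It had 4 without the shallow libraries (8.68%) and 3 without those numbered 1 (6.43%). LB1 against parental at 0 h had 1 with DESeq2 (4.79%), RLE scaling (4.31%), library size alone (4.28%), the compared groups alone (8.56%) or without those numbered 1 (6.47%). It had 2 with the trend removed, with or without the block (6.75% and 6.21%). E2F1 in LAC at 96 h turned from -0.07 to 0.37 (log2 fold change, edgeR adjusted p = 0.0438) with the trend removed and the block.

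Leaving out 1 library at a time gave 0 to 1 for parental at 16 h, 0 to 5 for LAC at 16 h, 6 to 14 for LAC at 96 h, 4 to 11 for LB1 from 16 to 96 h, 0 to 2 for LB2 at 16 h, 0 to 2 for LB2 at 96 h, 2 to 9 for LAC minus parental at 96 h, 10 to 15 for LAC against parental and 1 to 9 for LB2 against parental. LAC from 16 to 96 h stayed at 1, and the other comparisons at 0. The shares of all genes called in these fits are not given here. LAC at 16 h reached 5 without LAC 0 h replicate 2, LAC at 96 h fell to 6 without LAC 96 h replicate 2, LB1 fell to 4 without LB1 96 h replicate 2, LAC minus parental fell to 2 without parental 0 h replicate 4, and LB2 against parental rose to 9 without LB2 0 h replicate 1.

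Replicate numbers did not pair the libraries throughout. Between LAC at 0 and 16 h all 4 pairs correlated over 0.1, and the added fit of those 2 groups with a replicate block called 0 members, as without it. In LAC 3 of 4 pairs between 16 and 96 h and 2 of 4 between 0 and 96 h were also over 0.1. Of 44 pairs with the same number, 18 had a correlation of deviations over 0.1 (range -0.57 to 0.69), and 13 libraries correlated best with their own number. The replicate block raised the count of LB2 at 16 h from 0 to 1 (2.02% of all genes tested) and moved no other count by over 1.5 times. Libraries under 5000000 counts limit precision at 0 h most, where 5 of the 6 lie.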
